A study of Canis lupus familiaris with 186 samples.

Results

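SETD2, ATRX, NF1, DLG2, DMD and GRM4 are 6 genes that are recurrently mutated, deleted or linked to risk in human or canine osteosarcoma, a malignant tumor of bone-forming cells. They were taken by name from the 37952 genes of the deposited table of expected counts, in which each has 1 row, and all 6 were among the 13422 genes with enough counts to be tested. The libraries came from primary tumors of 186 privately owned dogs with osteosarcoma, 1 library per dog, sampled before treatment. The dogs differed in breed, age and sex, and none carried an engineered allele. The labels give the trial alone as a group, COTC021 for 93 dogs and COTC022 for 93 dogs, and no untreated or normal bone was compared here. Disease-free interval, survival and the GS-1 clusters of the study are not in the labels and were not used here, so that GS-1 enters below as a continuous score.

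The 6 genes act in different parts of the cell. SETD2 encodes the methyltransferase that trimethylates histone H3 at lysine 36 behind elongating RNA polymerase. ATRX encodes a chromatin remodeler that works with DAXX to deposit the histone variant H3.3 at telomeres and repeats, and its loss is known in tumors that lengthen telomeres without telomerase. NF1 encodes neurofibromin, which switches off RAS by speeding up its GTP hydrolysis. DLG2 encodes a membrane-associated guanylate kinase (MAGUK), a scaffold of synapses and epithelial junctions. DMD encodes dystrophin, which ties the actin cytoskeleton to the dystroglycan complex of muscle membranes and also has shorter forms in other cells. GRM4 encodes a metabotropic glutamate receptor coupled to inhibitory G proteins, and its locus has been tied to osteosarcoma risk in people.

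Library totals lay between 6587631 and 27420857 counts. In 50 column names the character _ is doubled, and these libraries had totals of 15803906 to 23214323 against a median of 9851681 in the other 136. They are called the deeper set below, but the column names alone define this set, not a cut on depth. The other 136 libraries overlapped with it in depth. Their lowest total was 6587631, and their highest, 27420857, was above every total of the deeper set. The labels do not say what the doubled character marks, so differences between the sets cannot be assigned to depth. Results were also computed within each set. The highest correlation between 2 libraries over genes was r = 0.9604, and none was treated as a duplicate. Markers of bone-forming cells were present at very different levels, as COL1A1 ranged from 345 to 148400 CPM (counts scaled to the TMM-normalized library size) and RUNX2 from 36.3 to 950.1 CPM, while IBSP, SP7 and DMP1 had a lowest value of 0 CPM. Skeletal muscle content differed widely, with MYH1, a myosin heavy chain of fast muscle fibers, at a count of 0 in 36 libraries, a median of 1.91 CPM and a highest value of 2245 CPM.

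SETD2 was detected in every library, from 7.39 CPM through a median of 83.4 to a highest value of 205 CPM. ATRX ranged from 8.26 CPM through a median of 83.5 to 168 CPM. NF1 ranged from 16.7 CPM through a median of 77.3 to 179 CPM. The lowest counts behind these values were 61, 79 and 203 reads, so that all 3 genes were well measured in each dog. DLG2 was lower in reads, from 0.332 CPM through a median of 6.38 to 44.5 CPM, and had fewer than 10 counts in 7 libraries. DMD ranged from 0.559 CPM through a median of 4.18 to 141 CPM, a span of 252-fold. GRM4 ranged from 0 through a median of 1.44 to 62.2 CPM, with fewer than 10 counts in 72 libraries and a count of 0 in 8. A count of 0 allows up to 3 counts at these depths, a limit that covers counting error only, and 43 libraries had at most 3 counts of GRM4. GRM4 was therefore readable in the libraries with high values and near the detection limit in many others. CPM depends on transcript length, so these levels are not compared between genes.

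The spread between dogs was large for GRM4, with an SD of 1.25 on the log2(CPM + 2) scale. Among the 1343 genes in the same decile of mean expression, 98.3% had a smaller SD. For DMD the SD was 1.05 and 81.4% of the genes in its decile had a smaller one. SETD2 (SD 0.60), ATRX (SD 0.56) and NF1 (SD 0.56) lay in 1 common decile, where the median SD was 0.48 and between 66.4% and 72.8% of genes had a smaller SD. The SD of DLG2 was 0.78, larger than that of 68.9% of the genes in its decile.

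**Figure D1:**
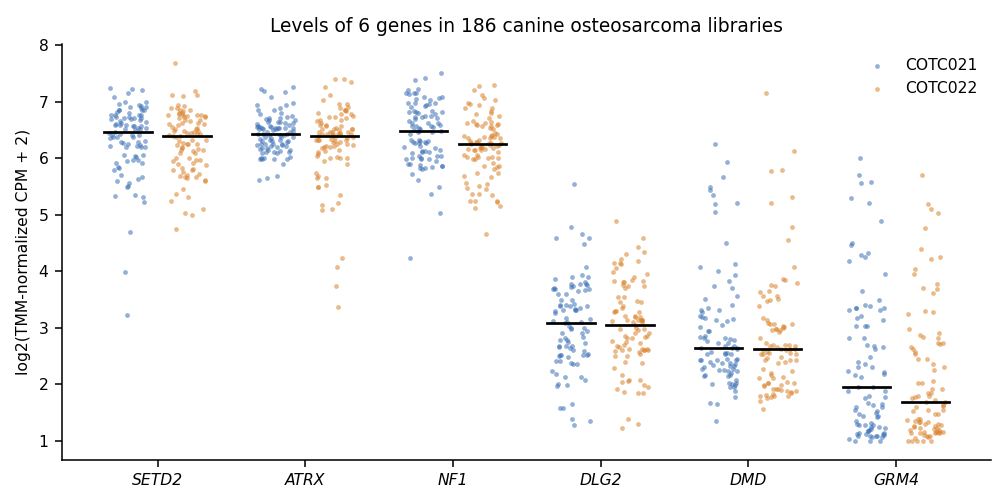
Level of each gene as log2(TMM-normalized CPM + 2) on the vertical axis, with 1 point per library, the trials COTC021 and COTC022 side by side and black bars at the medians. ATRX has a tail of low values in COTC022, from 8.26 CPM, while the lowest ATRX value in COTC021 is 47.3 CPM, and DMD and GRM4 have tails of high values in both trials.

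None of the 6 genes was called between the 2 trials. In limma-voom, 0 of 6 passed an adjusted p of 0.05, where 0.0149% of all genes tested did (2 of 13422). The median of NF1 was 87.3 CPM in COTC021 (lowest 16.7, highest 179) and 74.5 CPM in COTC022 (lowest 23.3, highest 156), and the ranges overlapped almost entirely. The log2 difference of COTC022 minus COTC021 was -0.24 ± 0.08 (SE) for NF1 and -0.20 ± 0.08 for ATRX, with adjusted p of 0.272 and 0.422 in limma-voom over all genes. The unadjusted limma p was 0.00437 for NF1 and 0.0213 for ATRX. Before adjustment 2 of 6 were thus under 0.05, where 1332 of all 13422 genes tested were. The 95% intervals of these 2 genes exclude 0 (-0.40 to -0.08 for NF1 and -0.36 to -0.03 for ATRX). With edgeR 0 of 6 were called, and with DESeq2 0 of the 5 with a p-value, since DESeq2 gave none for DMD. SETD2 (-0.04 ± 0.09), DLG2 (0.07 ± 0.16), DMD (-0.09 ± 0.20) and GRM4 (-0.45 ± 0.36) had intervals that include 0. Between the library sets, SETD2 was 0.31 ± 0.10 higher on the log2 scale in the deeper set, with an adjusted p of 0.057 in limma-voom. Again 0 of 6 were called, where 4.27% of all genes were. At an unadjusted limma p under 0.05 there was 1 of 6, where 2471 of all 13422 genes tested passed.

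A library was counted as a low outlier for a gene when its log2 value lay more than 1.5 interquartile ranges under the first quartile. Of all genes tested, 49.4% had at least 1 such library. SETD2 had 4 low outliers, 3 in COTC021 and 1 in COTC022, and 91.9% of genes had fewer. Their values were 7.39, 13.9 and 24.0 CPM in COTC021 replicates 72, 6 and 27 and 25.0 CPM in COTC022 replicate 35. NF1 had 2, COTC021 replicate 81 with 16.7 CPM and COTC022 replicate 62 with 23.3 CPM. DLG2, DMD and GRM4 had 0 low outliers, and for GRM4 and DLG2 the pseudocount of 2 CPM compresses low values.

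ATRX had 11 low outliers, and all 11 were in COTC022. The 4 lowest were replicates 27, 67, 24 and 11 of that trial, with 8.26, 11.3, 14.8 and 16.8 CPM, and they stand apart from the next library at 31.8 CPM. The other 7 ranged from 31.8 to 43.0 CPM. In COTC021 the lowest ATRX value was 47.3 CPM. Fisher's exact test of 11 of 93 against 0 of 93 libraries, run after the pattern had been seen, gave a two-sided p of 0.000714. Of all genes, 99.7% had fewer low outliers than ATRX, and of the 42 genes with at least 11, ATRX was the 1 gene with all of them in a single trial. The SD of ATRX on the log2 scale was 0.34 in COTC021 and 0.71 in COTC022, a ratio of 2.11. Its permutation p was 0.00021 (100000 resamples, two-sided, 0.00126 adjusted over the 6 genes). The comparison of SDs was not planned and includes the same 11 low libraries, so it is not separate from the count of outliers. For the other 5 genes the ratio lay between 0.843 and 1.02 and the permutation p between 0.251 and 0.927. Of the 11 libraries, 3 belonged to the deeper set. COTC022 replicate 62 was low for ATRX (34.3 CPM) and for NF1, and it was the 1 library low for more than 1 of the 6 genes.

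A property of the whole library moved with ATRX. ATRX spans 333 kb of the X chromosome, and genes of longer genomic span tended to have a higher r with ATRX across libraries (Spearman's rho = 0.52 across genes). A gene-span index was formed for each library as the mean z-score of the 10% of genes with the longest span (at least 141 kb) minus that of the 10% with the shortest span (at most 4.05 kb), without the 6 genes. It ranged from -1.09 to 0.894 in COTC021 and from -1.67 to 0.875 in COTC022, with SDs of 0.347 and 0.523. Across libraries, ATRX followed the index with r = 0.66 and rho = 0.63 (r = 0.46 within COTC021, 0.72 within COTC022, 0.79 in the deeper set and 0.63 in the other libraries), given as a description. After the index was removed by regression, ATRX had 7 low outliers, 2 in COTC021 and 5 in COTC022, and Fisher's exact test gave p = 0.444. The ratio of the SDs became 1.53 with a permutation p of 0.0509, and 1.55 with p = 0.0413 when the library set was removed too. For NF1 the same step gave a ratio of 0.703 (permutation p = 0.0493, and 0.0401 with the library set). For SETD2, DLG2, DMD and GRM4 the ratio lay between 0.873 and 1.06 (permutation p from 0.263 to 0.742). The permutation p-values after regression were not adjusted over the 6 genes, so those just under 0.05 are not counted as passing. SETD2 then had 9 low outliers, 4 in COTC021 and 5 in COTC022. The fence for the 7 low ATRX libraries was set anew on the residuals, so 5 against 2 is not a split of the same 11 libraries. The 2 in COTC021 were not among the 11, which were all in COTC022. What sets the index was not tested.

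**Figure D2:**
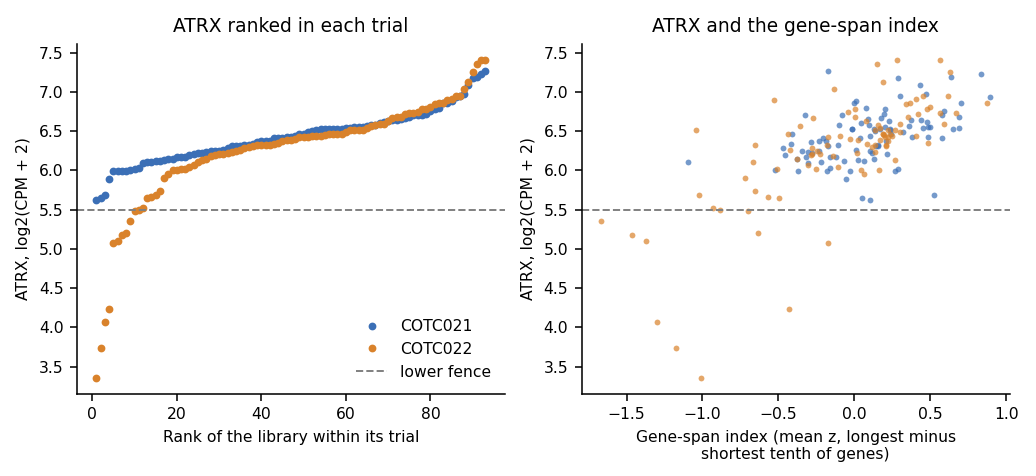
Left, log2(CPM + 2) of ATRX against the rank of each library within its trial, with the lower fence dashed. The 11 points under the fence are all from COTC022. Right, the same values against the gene-span index (mean z-score of genes with the longest minus the shortest span), where ATRX rises with the index (r = 0.66).

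SETD2 varied weakly with the stromal content of the tumors. Each library was given 8 scores, the mean z-scores of lists of marker genes, and slopes are log2 changes per SD of a score with trial as covariate. SETD2 rose with the smooth muscle and pericyte score by 0.17 ± 0.04 (limma-voom adjusted p = 0.00126), where 2 more of the 6 genes and 40.5% of all genes were called. The slope was 0.27 within COTC021, 0.06 within COTC022 (adjusted p = 0.517 in limma-voom) and 0.07 in the deeper set (adjusted p = 0.542). It rose with the endothelium score by 0.13 ± 0.05 (adjusted p = 0.013 in limma-voom), where 2 of 6 members and 38.3% of all genes were called, and it did not pass within either trial (adjusted p of 0.127 and 0.13) or in the deeper set (0.05, adjusted p = 0.695). With the cartilage score its slope was 0.12 ± 0.05 (limma-voom adjusted p = 0.036), the 1 call among the 6 genes where 29.3% of all genes were called. That call was lost with library set as covariate (0.11, adjusted p = 0.0567 in limma-voom), within each trial, in each library set and without the libraries with MYH1 of 10 CPM or more (adjusted p from 0.0608 to 0.453). With all 8 scores in 1 fit, the slopes on smooth muscle (0.12, adjusted p = 0.288 in limma-voom) and endothelium (0.05, adjusted p = 0.752) no longer passed.

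The other genes of histone H3 lysine 36 methylation and its readers moved in both directions with the smooth muscle score, on which SETD2 rose. Of the 23 tested besides SETD2, 4 rose, 4 fell and 15 were not called, where 21.1% of all genes rose and 19.4% fell, and the median slope was -0.004 against -0.004 over all genes. Between the library sets, 6 of the 23 were higher in the deeper set and 0 lower, where 1.92% and 2.35% of all genes were, and the median difference was 0.12 against 0.01 over all genes. DNMT3B (0.53), NSD1 (0.31) and DNMT3A (0.28) were among the 6, beside the 0.31 of SETD2, which did not pass. With the proliferation score 8 rose and 4 fell, or 52.2% called against 55.4% of all genes. The de novo DNA methyltransferase gene DNMT3B rose by 0.49 and NSD2, a dimethyltransferase for the same lysine, by 0.46 per SD (limma-voom adjusted p of 1.14e-10 and 2.11e-30), while PHF1, a reader in the Polycomb complex, fell by 0.18. The slope of SETD2 itself on proliferation was -0.0037 ± 0.046 (adjusted p = 0.952 in limma-voom).

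ATRX was called on none of the cell type scores. Its slopes on the GS-1, muscle, smooth muscle, endothelium, osteoblast, cartilage and osteoclast scores lay between -0.04 and 0.07, and none was called. With proliferation, measured from 16 cell cycle genes, ATRX fell by 0.12 ± 0.04 per SD (limma-voom adjusted p = 0.0105), where 3 of the 6 genes and 55.4% of all genes were called. The slope was -0.03 within COTC021 (adjusted p = 0.514 in limma-voom) and -0.19 within COTC022 (adjusted p = 0.027), and the difference of the slopes did not pass (-0.16 ± 0.08, adjusted p = 0.546). In the deeper set it was -0.06 (adjusted p = 0.63 in limma-voom).

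Genes of the same axis rose with proliferation. Of the 18 genes tested of the DAXX and H3.3 axis and of telomere maintenance, 10 rose with the proliferation score, 0 fell and 8 were not called, against 25.0% of all genes that rose and 30.4% that fell. The median slope was 0.09 against -0.02 over all genes. RAD51AP1, a recombination factor, rose by 0.75 and ASF1B, a histone H3 chaperone of dividing cells, by 0.67 per SD, with limma-voom adjusted p of 1.26e-29 and 3.51e-38. DKC1, a core subunit of telomerase particles, rose by 0.29 and CBX5, which encodes the heterochromatin protein HP1 alpha, by 0.21.

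NF1 fell with the GS-1 score, which is built from 27 genes mostly of leukocytes that an earlier canine study had put together. The slope was -0.14 ± 0.04 per SD (limma-voom adjusted p = 0.00255). It was -0.21 within COTC021 (adjusted p = 0.00231 in limma-voom) and -0.07 within COTC022 (adjusted p = 0.346), and the interaction with the trial did not pass (0.14 ± 0.08, adjusted p near 1). With all 8 scores in 1 fit the slope was -0.15 (adjusted p = 0.0165). The call was lost in the deeper set (-0.08, adjusted p = 0.454 in limma-voom) and in the 149 libraries with MYH1 under 10 CPM (-0.10, adjusted p = 0.0647). NF1 was called on none of the other 7 scores, where its slopes ranged from -0.07 to 0.08.

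In the RAS pathway, 6 of the 30 genes tested besides NF1 rose with the GS-1 score, 1 fell and 23 were not called. Called genes made up 23.3% of the list against 49.2% of all genes, and 22.7% of all genes rose, so that the list did not rise more often than the background. The highest slopes were those of DUSP6, an ERK phosphatase that is itself induced by ERK (0.41, limma-voom adjusted p = 2.49e-13), and ETV5, an ETS factor downstream of ERK (0.25, adjusted p = 0.0003). SPRED3, one of the Sprouty-related inhibitors of RAS signaling, rose by 0.16, and SOS2, an exchange factor that loads RAS with GTP, by 0.15. With proliferation, 15 of the 30 fell and 3 rose, where 30.4% of all genes fell and 25.0% rose. ETV5 (-0.27), DUSP6 (-0.26) and SPRED3 (-0.20) were among those that fell, while NF1 had a slope of -0.02.

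ATRX and NF1 rose and fell together across dogs. Of the 15 pairs of the 6 genes, theirs had the highest correlation, with Pearson's r = 0.47 and Spearman's rho = 0.48 (permutation p = 1e-05 for both, the smallest that 100000 resamples can give, and 0.00015 adjusted over the 15 pairs). Without the 2 libraries farthest from the median of ATRX, r was 0.45, and r was 0.40 within COTC021, 0.52 within COTC022, 0.54 in the deeper set and 0.45 in the other libraries. NF1 also followed the gene-span index, with r = 0.65 and rho = 0.65. After trial, library set and the index were removed, r between ATRX and NF1 was 0.05 (permutation p = 0.468, adjusted 0.827). SETD2 and ATRX had r = 0.22 and rho = 0.30 (permutation p = 0.00382 and 3e-05, adjusted 0.0143 and 0.000225), r = 0.27 without the 2 libraries farthest from the median of SETD2, and r = 0.03 after the same step. Values of r for the other genes with the index were 0.32 for SETD2, 0.13 for DLG2, 0.21 for DMD and -0.04 for GRM4.

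DLG2 followed osteoclast genes. It rose with the osteoclast score, built from ACP5, CTSK, MMP9 and other genes of the bone-resorbing cell, by 0.59 ± 0.08 per SD (limma-voom adjusted p = 1.81e-11), the 1 member called where 32.2% of all genes were. Spearman's rho was 0.49 and Pearson's r 0.45 (permutation p = 1e-05 for both, 8e-05 adjusted over 48 relations for r and 4.8e-05 for rho), and r was 0.47 without the 2 libraries with the most extreme scores. The slope was 0.52 within COTC021, 0.68 within COTC022, 0.70 in the deeper set and 0.53 in the other libraries, with limma-voom adjusted p between 1.22e-07 and 0.00242. With all 8 scores in 1 fit it was 0.49 (adjusted p = 4.39e-07). DLG2 also rose with the osteoblast score by 0.45 ± 0.08 (limma-voom adjusted p = 2.37e-06), which was 0.19 in the joint fit (adjusted p = 0.1) and 0.43 in the deeper set (adjusted p = 0.0857). Fewer cells of a type and less RNA per cell cannot be told apart in these bulk libraries.

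Among the 21 MAGUK scaffolds and partners tested besides DLG2, 1 rose with the osteoclast score, 2 fell and 18 were not called, where 15.3% of all genes rose and 16.9% fell. The gene that rose was MPP7, a MAGUK of epithelial junctions, with a slope of 0.97 (limma-voom adjusted p = 7.46e-29), and DLG4 and MAGI3 fell by 0.15 and 0.14. With the osteoblast score 8 rose and 2 fell, led by MAGI2 (0.37), MPP2 (0.33) and CASK (0.28), where 17.8% of all genes rose and 19.5% fell. The genes most alike DLG2 over the 186 libraries were MYO1D (r = 0.60), CDK18 (0.53), NEU3 (0.53), PTPN13 (0.52) and CD200 (0.52), and NEU3 lies on the same chromosome. Those least alike were ADORA2B (-0.48), PRDX6 (-0.42) and MMD (-0.42).

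DMD followed muscle in the samples. Its correlation with MYH1 was r = 0.56 and rho = 0.34 (permutation p = 1e-05 and 2e-05 with 100000 resamples, 6e-05 and 0.00012 adjusted over the 6 genes). Without the 2 libraries farthest from the median MYH1, r was 0.50. It was 0.57 within COTC021, 0.56 within COTC022, 0.63 in the deeper set and 0.53 in the other libraries. The relation was seen mainly with the libraries rich in muscle included. In the 149 libraries with MYH1 under 10 CPM, r was 0.13 and rho 0.15 (permutation p = 0.116 and 0.0651). This cut narrows the range of MYH1, which had a count of 0 in 36 libraries, so these values are not directly comparable with those over all libraries. In the 37 libraries with 10 CPM or more, called MYH1-rich below, DMD had a median of 8.16 CPM (1.27 to 141), and in the other 149 a median of 3.83 CPM (0.559 to 43.1), so that the ranges overlapped.

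On the skeletal muscle score of 17 genes, which does not hold DMD, DMD rose by 0.88 ± 0.06 per SD (limma-voom adjusted p = 4.1e-32). It was the 1 member called where 9.94% of all genes were. The slope was 0.80 within COTC021 and 0.93 within COTC022, and 0.72 in the joint fit of 8 scores. In the libraries with MYH1 under 10 CPM it was 0.18 (adjusted p = 0.841 in limma-voom).

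DMD had 16 high outliers, from 25.7 to 141 CPM, and they differed in MYH1 and in their scores. The numbers of high outliers of DMD and of the other members were not set against those of all genes. MYH1 was at 10 CPM or more in 10 of the 16. The highest DMD value, 141 CPM in COTC022 replicate 68, came with a MYH1 of 52.0 CPM but with the highest muscle score of the 186 libraries (4.66 SD). The next, 74.1 CPM in COTC021 replicate 45, came with the highest MYH1, 2245 CPM. In 6 libraries MYH1 was under 10 CPM. Of these, COTC021 replicates 9 and 43, with 41.5 and 43.1 CPM of DMD, had smooth muscle and pericyte scores of 4.29 and 3.18 SD. Their osteoblast scores were -2.61 and -1.82 SD. COTC021 replicates 6, 18 and 38, with 35.0, 34.7 and 39.0 CPM, had osteoblast scores of -2.36, -1.90 and -1.74 SD and muscle scores below the mean. The osteoblast scores of all of these COTC021 libraries were low, while the smooth muscle and pericyte scores of replicates 6, 18 and 38 were below the mean. COTC022 replicate 11, with 25.7 CPM, had an osteoblast score of 0.214 SD. These libraries also enter the slopes of DMD on the scores, so this is a description only. COTC022 replicate 11 was also among the 4 lowest ATRX libraries, and COTC021 replicate 6 was among the 4 low SETD2 libraries.

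Outside skeletal muscle, DMD rose with the smooth muscle and pericyte score by 0.73 ± 0.07 per SD (limma-voom adjusted p = 2.11e-17). This slope was 0.57 (adjusted p = 9.51e-11) in the libraries with MYH1 under 10 CPM and 0.41 in the joint fit (adjusted p = 0.000705). DMD fell with the osteoblast score by 0.53 ± 0.08 (limma-voom adjusted p = 4.22e-08), where 3 of the 6 genes and 37.3% of all genes were called. The slope was -0.53 in the libraries with little MYH1, -0.78 within COTC021 and -0.28 within COTC022, where it did not pass (adjusted p = 0.142 in limma-voom), and -0.40 in the deeper set (adjusted p = 0.0887). The difference of the 2 slopes was 0.50 ± 0.17, with an unadjusted p of 0.00381 and an adjusted p near 1. DMD fell with proliferation by 0.45 ± 0.09 (limma-voom adjusted p = 8.01e-06), a slope of -0.11 in the joint fit (adjusted p = 0.298) and -0.25 in the libraries outside the deeper set (adjusted p = 0.0502). With the endothelium score it rose by 0.41 ± 0.10 (adjusted p = 0.000287 in limma-voom), and in the joint fit the direction turned (-0.25, adjusted p = 0.0721). Outside the deeper set that slope was 0.28 (adjusted p = 0.0689 in limma-voom).

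**Figure D3:**
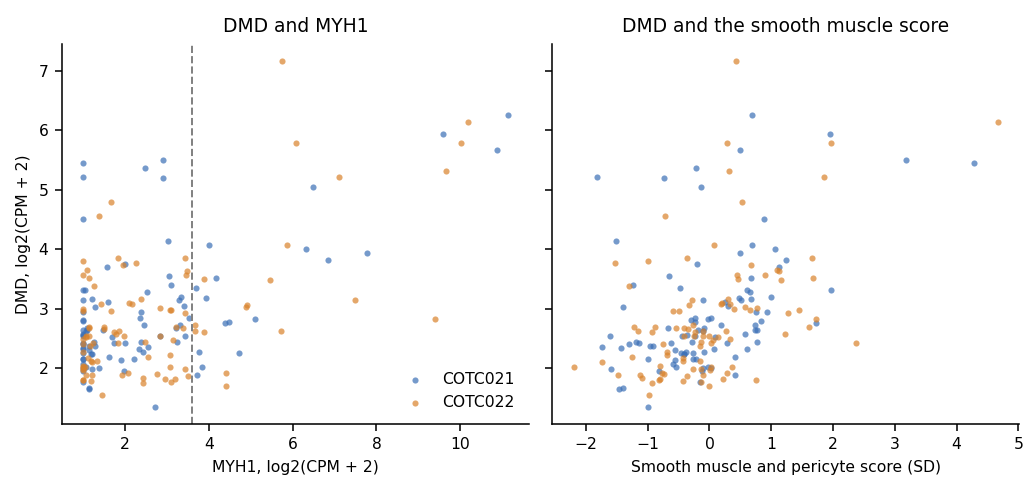
DMD as log2(CPM + 2) against MYH1 on the same scale (left, dashed line at 10 CPM of MYH1) and against the smooth muscle and pericyte score in SD (right), 1 point per library, colored by trial. DMD rises with MYH1 mainly to the right of the dashed line (r = 0.56 over all 186 libraries, 0.13 over the 149 to the left), and 2 libraries with scores of 4.29 and 3.18 SD carry high DMD with little MYH1.

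Genes of the dystrophin complex moved in both directions. Of the 19 tested besides DMD, 4 rose with the muscle score, 0 fell and 15 were not called, where 7.06% of all genes rose and 2.88% fell. The 4 were DTNA (dystrobrevin alpha, 0.81 per SD, limma-voom adjusted p = 4.65e-15), SGCA (the muscle sarcoglycan alpha, 0.73, adjusted p = 4.65e-14), LAMA2 (the laminin chain bound by dystroglycan, 0.57) and SNTB1 (syntrophin beta 1, 0.32). The median slope of the 19 was -0.01. With the smooth muscle and pericyte score 8 rose and 5 fell, where 21.1% of all genes rose and 19.4% fell, and the median slope was 0.10. LAMA2 (1.06), DTNA (0.74), SGCA (0.45), SNTB1 (0.29) and SSPN (sarcospan, 0.26) rose with that score, as DMD did. With the osteoblast score, on which DMD fell, 8 rose and 2 fell (17.8% and 19.5% of all genes), with SGCD (sarcoglycan delta, 0.36) among those higher and LAMA2 among those lower (-0.999). With the GS-1 score 10 of the 19 fell and 1 rose, where 26.5% of all genes fell and 22.7% rose, while DMD rose. The genes most alike DMD were PDLIM3 (r = 0.73), SYNPO2 (0.69), TMOD4 (0.68), DES (0.67) and MAP3K20 (0.66), of which PDLIM3, SYNPO2, TMOD4 and DES encode proteins of the sarcomere or the muscle cytoskeleton. The least alike were RHBDL2 (-0.50), SP7 (-0.47), the osteoblast transcription factor, and LRRC45 (-0.46).

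GRM4 followed osteoblast genes and proliferation. It rose with the osteoblast score by 1.14 ± 0.20 per SD (limma-voom adjusted p = 9.83e-07). The slope was 1.295 within COTC021, 0.94 within COTC022 and 1.48 in the joint fit of 8 scores (adjusted p = 9.55e-08). In the deeper set it was 1.15 and did not pass (adjusted p = 0.058 in limma-voom). The Spearman correlation, which does not depend on the pseudocount, was 0.41, and Pearson's r was 0.42 (permutation p = 1e-05 for both, 4.8e-05 and 8e-05 adjusted over 48 relations), with r = 0.42 without the 2 most extreme scores. The 5 high outliers, from 45.4 to 62.2 CPM, had osteoblast scores between 0.421 and 1.62 SD, all above the mean. They also enter the slope and the correlations, so this is a description only. GRM4 rose with proliferation by 0.79 ± 0.19 (limma-voom adjusted p = 0.000182), a slope of 0.61 in the joint fit (adjusted p = 0.0116) and 0.55 in the deeper set, where it did not pass (adjusted p = 0.288). It fell with the smooth muscle score by 0.51 ± 0.20 (limma-voom adjusted p = 0.0303), a call lost in the joint fit (-0.12, adjusted p = 0.844), within each trial, in each library set and without the MYH1-rich libraries (adjusted p from 0.143 to 0.219).

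Glutamate genes were compared on the same scores. Of 29 listed genes in the table, 10 besides GRM4 passed the filter, so that most listed genes were too low to be tested. With the osteoblast score 5 of the 10 rose, 1 fell and 4 were not called, where 17.8% of all genes rose and 19.5% fell, and the median slope was 0.45. They were led by the glutamate transporter SLC1A2 (0.98, limma-voom adjusted p = 4.1e-09), the ionotropic receptor GRIA1 (0.75), the G protein subunits GNAO1 (0.55) and GNAI1 (0.40), through which GRM4 can signal, and the transporter SLC1A3 (0.55). With the osteoclast score 5 rose (15.3% of all genes), among them SLC1A2 (0.80) and GRIA1 (0.68), while GRM4 had a slope of 0.09 ± 0.18. The genes most alike GRM4 were ZCCHC3 (r = 0.60), SCML2 (0.58), ADRA2B (0.57), APBA2 (0.56) and SOST (0.54), the last the sclerostin gene of osteocytes. The least alike were HHIPL1, ATXN1 and MYOF, each at -0.51 or -0.52.

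**Figure D4:**
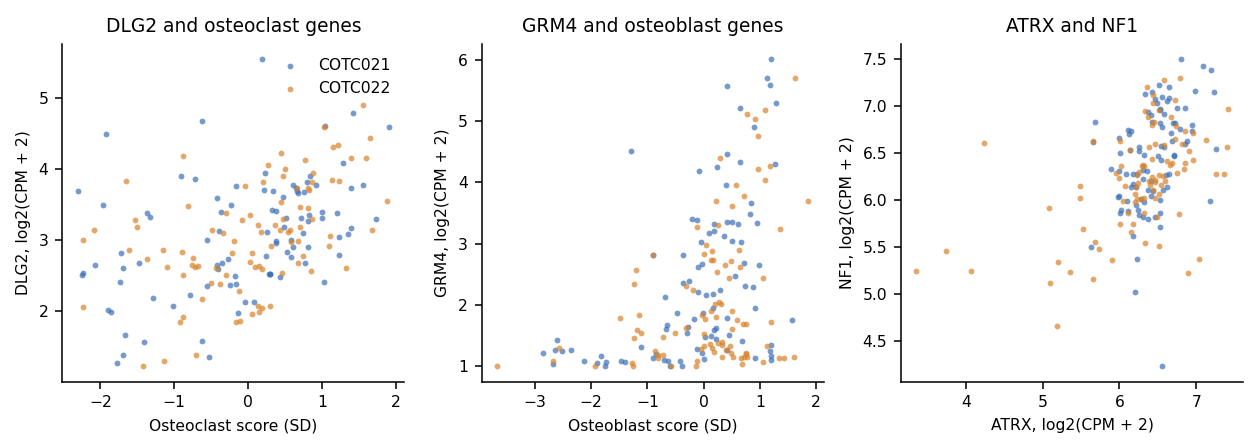
Scatter plots with 1 point per library, colored by trial. DLG2 against the osteoclast score in SD (left, rho = 0.49), GRM4 against the osteoblast score in SD (middle, rho = 0.41) and NF1 against ATRX (right, r = 0.47), with gene levels as log2(CPM + 2). The 5 high outliers of GRM4 lie at osteoblast scores between 0.421 and 1.62 SD.

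With the GS-1 score, 5 of the 6 genes were called, where 49.2% of all genes tested were. DMD rose by 0.39 ± 0.09 (limma-voom adjusted p = 4.19e-05) and SETD2 by 0.11 ± 0.05 (adjusted p = 0.0421). The call of SETD2 was lost with edgeR, DESeq2, no filter, the quantile-normalized score and without libraries under 8000000 counts (adjusted p from 0.0638 to 0.103), and also within each trial, in each library set and without the MYH1-rich libraries (adjusted p from 0.0726 to 0.443). DLG2 fell by 0.23 ± 0.08 (adjusted p = 0.0157 in limma-voom). That call was lost with edgeR (adjusted p = 0.0779), within each trial, in each library set and without the MYH1-rich libraries (adjusted p from 0.0819 to 0.225). Spearman's rho with the score was -0.11 for DLG2 and 0.07 for SETD2 (permutation p = 0.152 and 0.322). For NF1, DMD and GRM4 rho passed (adjusted permutation p of 0.026, 4.8e-05 and 0.00144). COTC022 replicate 64, with a GS-1 score of 4.27 SD, had the highest SETD2 and the lowest DLG2 value. GRM4 fell by 0.67 ± 0.20 (adjusted p = 0.00237 in limma-voom), a call lost within COTC021 (-0.57, adjusted p = 0.147) and in the deeper set (-0.36, adjusted p = 0.499), and NF1 fell as given above. The slope of ATRX was 0.07 ± 0.04 (adjusted p = 0.186 in limma-voom). The scores are correlated with each other, and with all 8 in 1 fit NF1 alone of the 6 still passed. In that fit the slope of DMD was 0.09 (adjusted p = 0.479 in limma-voom) and that of GRM4 turned positive (0.30, adjusted p = 0.347). In the 149 libraries with MYH1 under 10 CPM, DMD (0.38) and GRM4 (-0.68) passed. For the difference of slopes between the trials, 0 of 6 passed in any of the 8 interactions of trial and score, where 0.0298% of all genes passed for proliferation and 0.0% for each of the other 7 scores. At an unadjusted p of 0.05, the interactions of DMD with the osteoblast score and of SETD2 with the smooth muscle score (-0.22 ± 0.09, unadjusted p = 0.0132 in limma-voom) were below it. Of all 13422 genes tested, 469 were below it for the osteoblast score and 442 for the smooth muscle score. The 95% intervals of these 2 member differences exclude 0, as their unadjusted p-values imply, and neither passed adjustment.

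**Figure D5:**
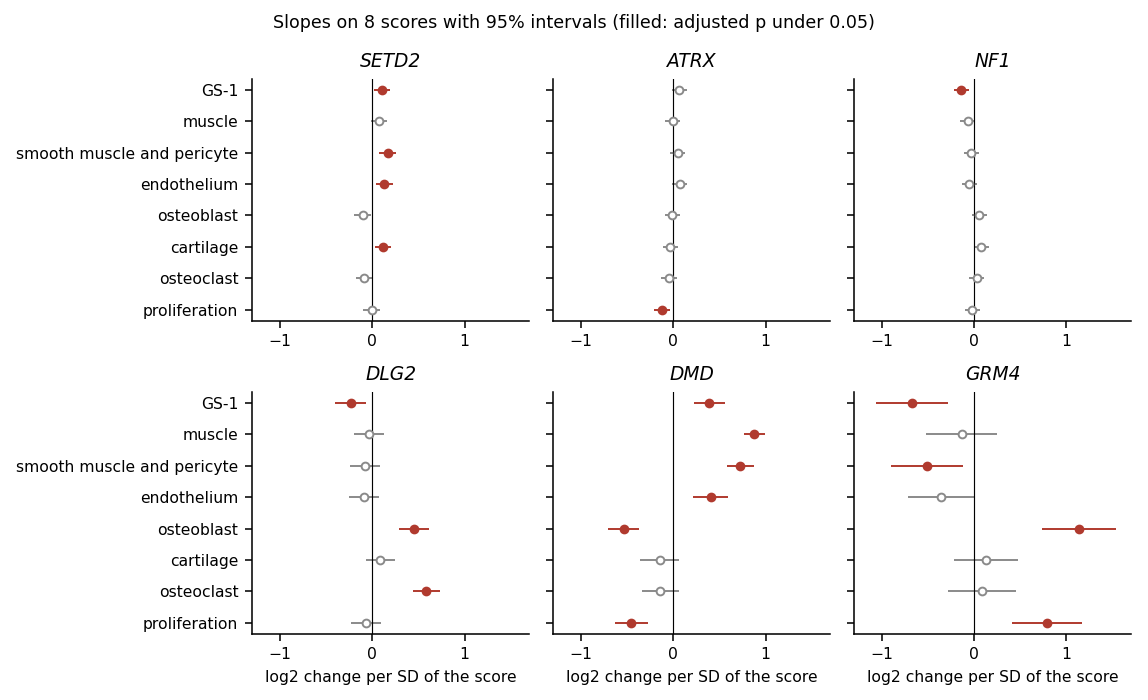
Slope of each gene on each of 8 scores, as the log2 change per SD of the score on the horizontal axis, with 95% intervals from limma-voom with trial as covariate. Filled red points have an adjusted p under 0.05. DMD reaches 0.88 on muscle, DLG2 0.59 on osteoclast and GRM4 1.14 on osteoblast, while ATRX and NF1 stay within 0.14 of 0.

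Among the other pairs, DMD and GRM4 had r = -0.22 and rho = -0.25 (permutation p = 0.00223 and 0.00064, adjusted 0.0141 and 0.0032), with r = -0.35 within COTC021 and -0.09 within COTC022. DLG2 and NF1 had r = 0.22 and rho = 0.21 (permutation p = 0.00282 and 0.00359, adjusted 0.0141 and 0.0135), and r = 0.17 (adjusted permutation p = 0.0517) after the removal of trial, library set and index. SETD2 and DLG2 had r = -0.19 (permutation p = 0.00934, adjusted 0.028) and rho = -0.15, which did not pass (adjusted 0.0826). Without the 2 libraries farthest from the median of the first gene, r was -0.24, 0.19 and -0.17 for these 3 pairs. The other 10 pairs did not pass for r as measured. After trial, library set and index were removed, 2 of these 10 did, SETD2 with NF1 (r = -0.26, adjusted permutation p = 0.00645) and DLG2 with DMD (r = -0.20, adjusted 0.0258), and DLG2 with DMD also passed with a pseudocount of 0.5 (adjusted 0.0475). Correlations with the log2 total count lay between -0.07 and 0.15.

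On the build UU_Cfam_GSD_1.0, RefSeq places SETD2 on chromosome 20 from 42081936 to 42207122, GRM4 on chromosome 12 from 3523998 to 3640232 and NF1 on chromosome 9 from 41442649 to 41716759. ATRX lies on chromosome X from 59917163 to 60249816 and DMD on chromosome X from 26455978 to 28540050, a span of 2084 kb with 1 annotated transcript in that table. DLG2 lies on chromosome 21 from 13891131 to 15878733, with 33 annotated transcripts over 1988 kb. Counts are per gene, so short and long forms of DMD or DLG2 were not separated. Inside NF1 lie EVI2A and EVI2B, and inside DLG2 lies TMEM126B, and across libraries their r with the host gene was -0.08, -0.13 and 0.09. The kit keeps strand, but whether strand was used in counting is not given in the sources used here.

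Neighbors on the chromosome were compared next. Over up to 5 tested genes on each side, the median r with the neighbors was 0.16 for SETD2, 0.13 for DLG2, 0.17 for ATRX, 0.06 for NF1, 0.18 for DMD and 0.04 for GRM4, against a median of 0.20 over all genes, as a description across genes. Single neighbors stood out. For SETD2, KLHL18, which starts 0.144 Mb before it, was the most alike of all genes tested (r = 0.57). ATP7A, 0.429 Mb after the start of ATRX, had r = 0.52. PACSIN1, 0.409 Mb after the start of GRM4, had r = 0.54 and rank 6 of all genes tested. XK, 6.14 Mb after the start of DMD, had r = 0.46.

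The genes most alike ATRX were BPTF (r = 0.66), USP34 (0.65), KMT2C (0.64), ASH1L (0.64) and MED13 (0.63), genes that span 103 to 284 kb, of which 0 lie on the X chromosome. BPTF, KMT2C and ASH1L act on chromatin, and MED13 belongs to the Mediator kinase module. Those of NF1 were MED13 (0.68), GTF3C4 (0.65), ASH1L (0.64), BPTF (0.63) and ACACA (0.62). Of these 5, 4 lie on chromosome 9 with NF1, where 6.11% of the genes tested with a position lie, and 3 are shared with ATRX. BPTF and MED13 are both on chromosome 9 and shared with ATRX, which lies on the X chromosome. The least alike span at most 7.22 kb, PAM16, AURKAIP1 and OXLD1 for ATRX (r from -0.53 to -0.52) and DRAP1, BANF1 and PRDX5 for NF1 (each -0.57). For SETD2, the other 4 most alike were ZNF529 (0.55), MRTFB (0.55), NPAT (0.54) and MAGI3 (0.52), and the least alike were CFAP299 (-0.53), GPS1 (-0.51) and AIG1 (-0.50). Across all genes, r with ATRX rose with the log of the gene's span (Spearman's rho = 0.52, across genes, which are not independent), as did r with NF1 (0.48) and SETD2 (0.30), and less so with DMD (0.19) and DLG2 (0.09). For GRM4 rho was -0.06.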

How the data were processed

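Primary tumor RNA of 186 dogs was sequenced as stranded mRNA libraries on a NovaSeq. Per the labels, the authors used bcl2fastq, cutadapt, STAR 2.7.0f and RSEM 1.3.1, and they deposited expected counts per gene on GSD_1.0, without normalization. RSEM divides reads that map to several genes, and 3.07% of values were not whole. Counts were rounded here. Of 198 columns, 186 match a labelled sample, and the other 12 were not used. DFI, OSv and GS-1 clusters were not used, since the labels do not give them.

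Genes were kept with filterByExpr of edgeR 4.0.16, at settings of 10 for the minimum count, 0.5 for the minimum share of libraries and 5 for large.n. TMM scaling was followed by voom weights and linear models of limma 3.58.1 (R 4.3.3), with Benjamini-Hochberg adjustment over 13422 genes. All adjusted p-values of slopes and contrasts in the text come from limma unless named otherwise. The edgeR quasi-likelihood test and DESeq2 1.42.0 served as alternatives. The limma-voom fits of trial and GS-1 score were also run on simulated counts with known changes, with results not given here. Correlations used log2(CPM + 2) with 100000 permutations in Python 3.11.15 with numpy 2.4.6 and scipy 1.17.1. Figures used matplotlib 3.10.9. Symbols and positions came from a RefSeq table of UU_Cfam_GSD_1.0, which matched 37313 of 37952 genes. No exon lengths were used, so levels are per gene only.

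The members and lists were chosen with earlier results of these data known. GRM4 and SCML2 are both in a gene signature that the study derived from genes differing between clusters of these same tumors. The relations of GRM4 with SCML2 and with the GS-1 score may therefore not be independent of that earlier result. Named besides the 6 genes were MYH1, at most 5 genes per list and fit with the largest slopes among those called, the 5 most and 3 least alike genes without LOC names, and 5 tested neighbors on each side. Replicates are numbered in accession order. Each dog gave 1 library, so spread between libraries includes technical spread.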

Additional observations from a re-analysis of the deposited data

How the results depend on the processing

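None of the 6 genes was called between the trials under the alternatives run, apart from DMD with DESeq2, which gave it no p-value. Over all genes, the trial contrast gave 129 calls with edgeR, 71 with DESeq2, 4 with upper-quartile scaling, 8 in the other 136 libraries and 0 in the deeper set or without libraries under 8000000 counts, against 2 in limma. The log2 difference of SETD2 turned to 0.00076 in the deeper set and 0.0072 without libraries under 8000000 counts. That of DLG2 turned to -0.046 with edgeR, -0.051 with DESeq2 and -0.047 in the other libraries, and that of DMD to 0.0039 with edgeR and 0.40 in the deeper set. The cause was not tested for these or the following values.

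On the GS-1 score, 6608 genes were called, and 3666 within COTC021, 3359 in the deeper set and 2938 with 8 scores in 1 fit. Of the 6 genes, 5 were called, against 3 with edgeR, 3 in the other libraries, 2 within COTC021, 2 within COTC022, 2 without libraries of MYH1 at 10 CPM or more, 1 in the deeper set and 1 with 8 scores in 1 fit, where GRM4 turned to 0.30. On the muscle score, 1334 genes were called, and 187 within COTC021, 352 in the deeper set, 427 in the other libraries, 554 with 8 scores in 1 fit and 49 without the MYH1-rich libraries, where DMD was not called, leaving 0 of 6. On the other 6 scores, 13 slopes of the 6 genes passed, where between 29.3% and 55.4% of all genes were called per score. With 8 scores in 1 fit 8 passed (7.27% to 38.2% of all genes per score), and DMD turned to -0.25 on endothelium. In the deeper set 4 passed (5.57% to 25.2% of all genes per score). Over all genes these 6 trends gave between 748 and 4833 calls in the fits that moved them by over 1.5 times. Smaller sets have fewer libraries.

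The correlation of DMD with MYH1 was 0.13 (permutation p = 0.116) without the MYH1-rich libraries. With a fence of 3 interquartile ranges, low outliers numbered 1 for SETD2, 4 for ATRX and 0 for NF1, and the 4 of ATRX were all in COTC022 (Fisher's exact p = 0.121). SETD2 had 2 with scaling to the library total only, and DLG2 had 6 with a pseudocount of 0.5. The fits with 8 scores, the gene-span index and the sets for the other 6 scores were chosen after seeing the data. The comparison of SDs between the trials was not planned. No paired analysis was possible because each dog was in 1 trial and its replicate number only names the library. GRM4 is limited by depth, with fewer than 10 counts in 72 libraries.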
